A study of Mus musculus with 2 samples.

Results

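The genes described here carry out MHC class I antigen processing. They were chosen by name as a functional group of 10: the light chain gene *B2m*, the heavy chain genes *H2-K1* and *H2-D1*, the peptide transporter genes *Tap1* and *Tap2*, the bridging chaperone gene *Tapbp*, the immunoproteasome genes *Psmb8*, *Psmb9* and *Psmb10*, and the transcriptional activator gene *Nlrc5*. Of these, 9 had a probe set annotated to their symbol alone, among 19505 genes measured in all. *Nlrc5* was not analysed here. The members and the lists set beside them were chosen with earlier results of these data known. The study grew gastric organoids from the stomachs of young C57BL/6 mice (2 to 4 months of age) and aged C57BL/6 mice (more than 18 months of age). Both groups received the same medium, with Wnt3a, R-Spondin1, Chir99021, EGF, Noggin, FGF10, valproic acid, Y-27632 and SB431542. Total RNA of each group was hybridized to 1 Clariom S mouse array, and the number of mice and passages behind each array is not given in the sources used here. With 1 array per group there is no replicate error, so no difference was tested, and the age of the mice cannot be told apart from any other difference between these cultures.

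Nearly every nucleated cell displays short peptides from its own proteins on MHC class I molecules, where CD8+ T cells read them. Proteasomes cut the peptides, the TAP transporter pumps them into the endoplasmic reticulum, and a loading complex fits them onto a heavy chain that is paired with β2-microglobulin. Interferons raise the transcription of most genes of this route, and they exchange the standard catalytic subunits of the proteasome for those of the immunoproteasome. NLRC5 is brought to class I promoters by proteins bound at a conserved set of boxes, the X and Y boxes among them. In epithelium, the amount of class I on the surface helps to set how visible a cell is to T cells and to natural killer cells.

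The promoters of the members are shown first, because the genes of the assembled class I molecule carry elements through which interferon and NLRC5 are known to act. Sequences are from RefSeq (GRCm38.p6), where 8 of the 10 members had a promoter window of 250 bases before and 50 bases after the transcription start. The stretches below run 5′ to 3′ on the strand of the gene and end at the base before its start. Capitals mark an interferon-stimulated response element (GAAANNGAAA, or the shorter GAANNGAAA), a κB site and a CCAAT box (CCAAT, or ATTGG on the other strand). They also mark the TGACG that lies 20 bases before an ATTGG (the X2 and Y boxes). *B2m* (chr2:122147487-122147686, plus strand), *H2-K1* (chr17:34000348-34000547, minus strand) and *H2-D1* (chr17:35262894-35263093, plus strand) are given over 200 bases. *Tap1* (chr17:34187331-34187555, plus strand) is given over the 225 bases that separate its start from that of *Psmb9*, which is transcribed the other way.
B2m: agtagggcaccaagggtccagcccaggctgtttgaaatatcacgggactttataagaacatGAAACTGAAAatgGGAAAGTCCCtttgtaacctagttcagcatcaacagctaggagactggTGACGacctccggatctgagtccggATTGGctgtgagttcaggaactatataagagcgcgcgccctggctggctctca
H2-K1: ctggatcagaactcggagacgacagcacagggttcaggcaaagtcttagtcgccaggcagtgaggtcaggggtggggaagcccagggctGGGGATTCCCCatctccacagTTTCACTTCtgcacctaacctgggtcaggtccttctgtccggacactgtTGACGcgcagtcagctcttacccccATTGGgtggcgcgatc
H2-D1: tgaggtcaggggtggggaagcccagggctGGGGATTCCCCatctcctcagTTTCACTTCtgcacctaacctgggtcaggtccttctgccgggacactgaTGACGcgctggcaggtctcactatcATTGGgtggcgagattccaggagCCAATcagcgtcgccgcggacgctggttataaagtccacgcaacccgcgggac
Tap1: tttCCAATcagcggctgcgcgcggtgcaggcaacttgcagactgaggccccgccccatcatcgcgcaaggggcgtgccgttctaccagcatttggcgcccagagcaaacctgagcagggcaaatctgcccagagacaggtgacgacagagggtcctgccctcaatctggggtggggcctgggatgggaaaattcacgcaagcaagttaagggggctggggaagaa

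Among the members, those for the assembled surface molecule held the most kinds of match. The strict response element GAAANNGAAA, searched on both strands, was found in *B2m* only, at positions −139 to −130 from the start, and in 3.49% of the 27025 promoter windows of all genes. The κB site was found in *B2m*, *H2-K1* and *H2-D1*, against 8.18% of all windows. The CCAAT box was found in 6 members and in 37.9% of all windows, and the gamma-activated site (TTCNNNGAA) in *Psmb8* alone of the members and in 8.47% of all windows. After the sequences had been read, 2 more patterns were searched. The shorter element GAANNGAAA was found in *H2-K1* and *H2-D1* and in 7.56% of all windows. A match to GAAANNGAAA is not in itself a match to it. A TGACG followed by an ATTGG after 15 to 25 bases was found in *B2m*, *H2-K1* and *H2-D1*, each time with 20 bases between, and in 125 of the 27025 windows (0.463%). *H2-K1* and *H2-D1* shared a run of 47 identical bases that holds the κB site, and 206 of 228 columns (90.4%) of their best local alignment were identical, whereas no other pair of the 8 windows shared more than 11 bases in a row. *Tap1* and *Psmb9*, whose windows overlap by 275 bases, were left out of this comparison. A match is a description of letters and does not show that a factor was bound in these cells.

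**Figure D1:**
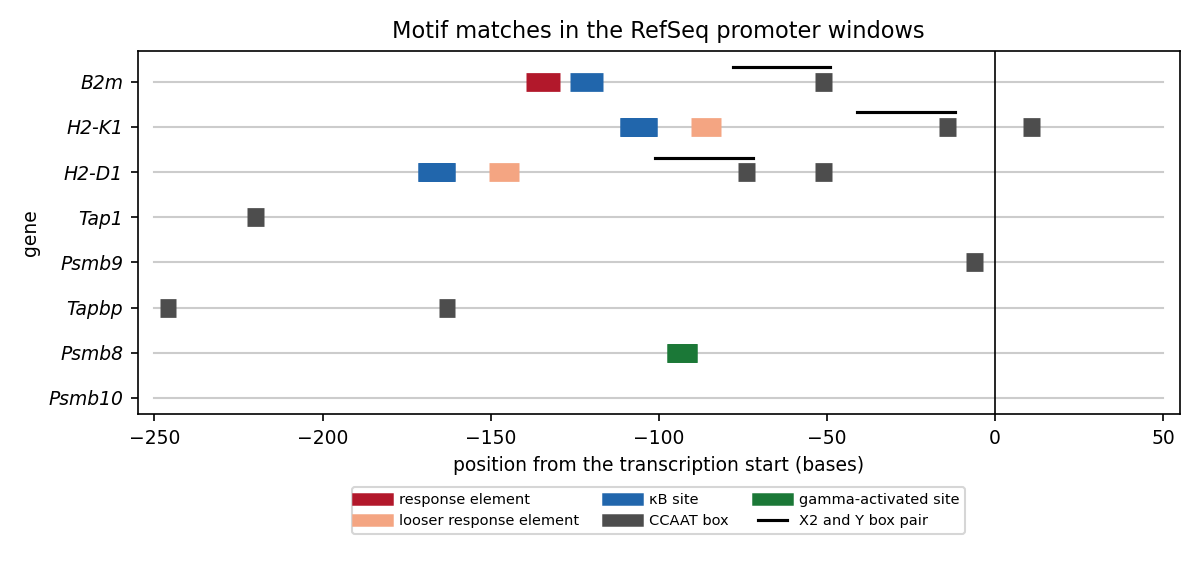
Motif matches along the promoter windows of 8 members, drawn from 250 bases before to 50 bases after the transcription start (position 0, in bases). Boxes are matches on either strand, with GAANNGAAA drawn as the looser response element. The black bar over a line spans a TGACG and ATTGG pair, which is present in *B2m*, *H2-K1* and *H2-D1* and in no other member.

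All 9 measured members had a lower signal in aged gastric organoids than in young gastric organoids, and 4 of them were at least 2-fold lower. These were the transporter genes *Tap1* and *Tap2*, the light chain gene *B2m* and the immunoproteasome gene *Psmb8*. The heavy chain genes *H2-K1* and *H2-D1* differed least among the members above background. Signals are log2 values from the RMA method, in which base 2 is assumed because the deposited table states no base. A gene was taken as above background where its signal exceeded that of 95% of 1412 odorant and pheromone receptor genes, which gave 5.36 in young and 5.54 in aged organoids. By this reference 7 members were above background on at least 1 array, *Psmb8* through the young array alone. Among 11558 genes above the reference, 11.8% were lower in aged organoids by 2-fold or more and 11.3% were higher by as much, and no member was among the latter. The median difference (aged minus young) of the 9 measured members was −0.90, against 0.04 for all 19505 genes. The receptor genes, which stand for signals at background, differed between the arrays with an SD of 0.51. The differences of *H2-K1*, *H2-D1*, *Psmb9* and *Psmb10* were smaller than that SD, and the precision of bright signals could not be measured without replicates. A bulk signal does not tell fewer expressing cells from less RNA in each cell.

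**Figure D2:**
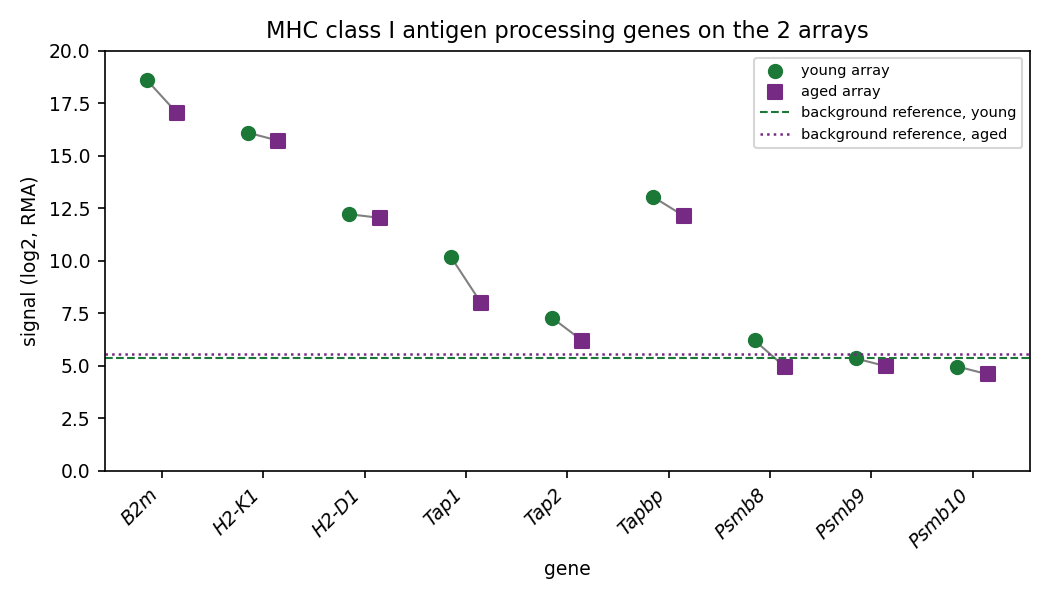
Log2 signal (RMA) of the 9 measured members on the young array (circles) and the aged array (squares), with the background reference of each array (dashed, 5.36, and dotted, 5.54). Every square lies under its circle, with the steepest line for *Tap1* and the flattest for *H2-D1*, and *Psmb9* and *Psmb10* lie under the reference on both arrays.

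Of the 2 parts of the surface molecule, the light chain differed more than the heavy chains. *B2m* encodes β2-microglobulin, without which class I heavy chains do not fold stably or reach the cell surface. Its log2 signal was 18.61 in young and 17.03 in aged organoids, a difference of −1.59 (3.0-fold lower). *H2-K1* and *H2-D1* encode the classical heavy chains that bind the peptide. *H2-K1* was at 16.09 in young and 15.72 in aged organoids (difference −0.38), and *H2-D1* was at 12.21 and 12.04 (difference −0.17). These are 1.30-fold and 1.13-fold, far from the 2-fold mark. Among all genes above background, the difference of *B2m* lay at percentile 6.17, that of *H2-K1* at 29.3 and that of *H2-D1* at 39.9. *B2m* is often used as an expression reference itself, and 12 reference genes measured beside it differed by −0.22 (*Tbp*) to 1.63 (*Pgk1*), with *Actb* at 0.08. Class I heavy chain genes are close copies of each other, and since no probe sequences were used here, part of a heavy chain signal may come from a related transcript.

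Of the members, the transporter gene *Tap1* showed the largest difference. *Tap1* and *Tap2* encode the paired subunits of the transporter that carries peptides from the cytosol into the endoplasmic reticulum. *Tap1* had a log2 signal of 10.19 in young and 7.98 in aged organoids, a difference of −2.21 (4.63-fold lower), at percentile 3.68 among genes above background. *Tap2* was at 7.28 and 6.18, a difference of −1.09 (2.13-fold lower). The aged signal of *Tap2* lay only 0.65 above the reference, close to the spread of background genes, so its size is less certain than that of *Tap1*, which lay 2.44 above it. *Tapbp* encodes tapasin, which holds the empty heavy chain next to the transporter until a fitting peptide is bound. It was at 13.03 in young and 12.13 in aged organoids, a difference of −0.90 that stayed short of 2-fold.

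The immunoproteasome genes were near or under background on both arrays. Their products, β5i (*Psmb8*), β1i (*Psmb9*) and β2i (*Psmb10*), replace the standard catalytic subunits and favor peptides that suit class I molecules. *Psmb8* had a log2 signal of 6.20 in young and 4.93 in aged organoids, which is under the reference. Its measured difference was −1.27, and with the aged value raised to the reference it was at least 1.58-fold lower. *Psmb9* was at 5.34 and 4.96 and *Psmb10* at 4.96 and 4.58, under the reference on both arrays, so no fold is given for them. The young value of *Psmb9* missed the reference by 0.02.

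**Figure D3:**
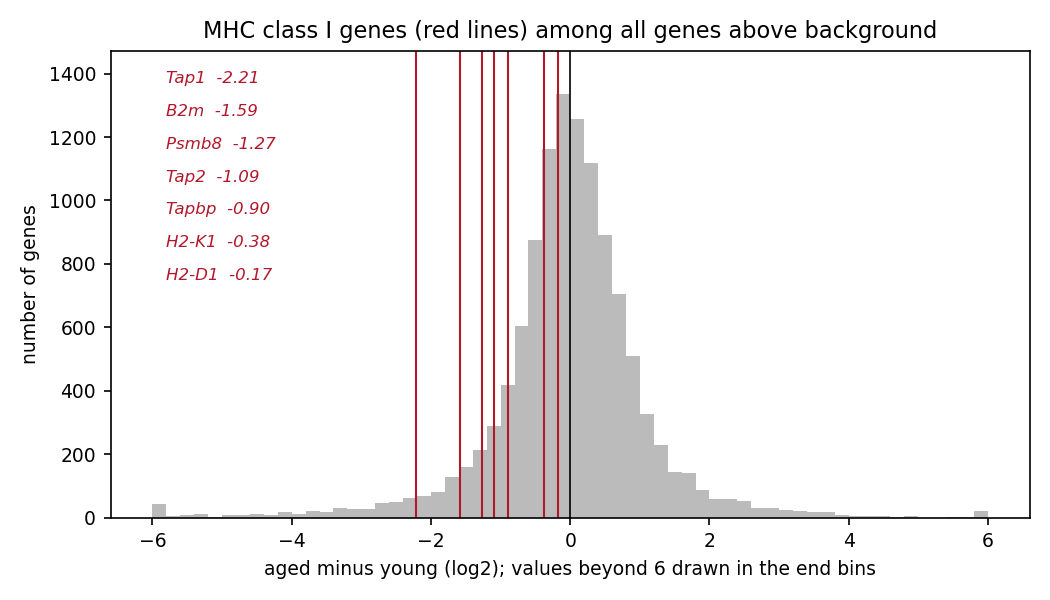
Histogram of the difference aged minus young (log2) over the 11558 genes above background, in bins of 0.2, with a red line at each of the 7 members above it. The lines run from −2.21 (*Tap1*) to −0.17 (*H2-D1*), all left of 0, while the median of the histogram is 0.0021.

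The rest of the loading machinery did not reach 2-fold in either direction. A list of 10 genes for peptide loading and trimming outside the members held 9 measured genes, all above background on both arrays, with a median difference of −0.20. *Calr*, the chaperone calreticulin of the loading complex, was at 17.36 in young and 16.65 in aged organoids (−0.71). Its partner *Pdia3*, the oxidoreductase ERp57, differed by −0.44, the related lectin chaperone *Canx* by −0.29, and the peptide editor *Tapbpl* by −0.62. *Erap1*, the aminopeptidase that trims peptides in the endoplasmic reticulum, was nearly level (8.76 and 8.56). The glycoprotein folding enzymes *Ganab* (−0.09) and *Uggt1* (0.28) were nearly level too. *Hspa5*, the general chaperone BiP, and *Sec61a1*, the channel for newly made proteins, ran the other way (0.48 and 0.88). *Sec61a1* and *Tapbpl* lie on chromosome 6, where the median difference of 552 genes above background was 0.68, whereas the members lie on chromosomes 2, 8 and 17, with medians of −0.06, −0.10 and −0.06.

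The measured genes of the standard proteasome were nearly level between the arrays, and the regulator that interferon induces was somewhat lower. Of 8 proteasome genes outside the members, 7 were measured, none was 2-fold apart, and their median difference was −0.05. The standard catalytic subunit gene *Psmb5*, whose place β5i takes, was not among those measured. The standard catalytic subunits *Psmb6* (13.49 and 13.84) and *Psmb7* (12.97 and 12.92), whose places β1i and β2i take, differed by 0.35 and −0.05, and the assembly factor *Pomp* by 0.03. *Psme1* and *Psme2* encode the subunits of the activator PA28αβ, which opens the proteasome and is induced by interferon-γ. They were at 15.48 and 14.84 (−0.64) and at 11.19 and 10.37 (−0.82), whereas the activator genes *Psme3* and *Psme4*, which are not part of PA28αβ, differed by 0.03 and −0.38.

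**Figure D4:**
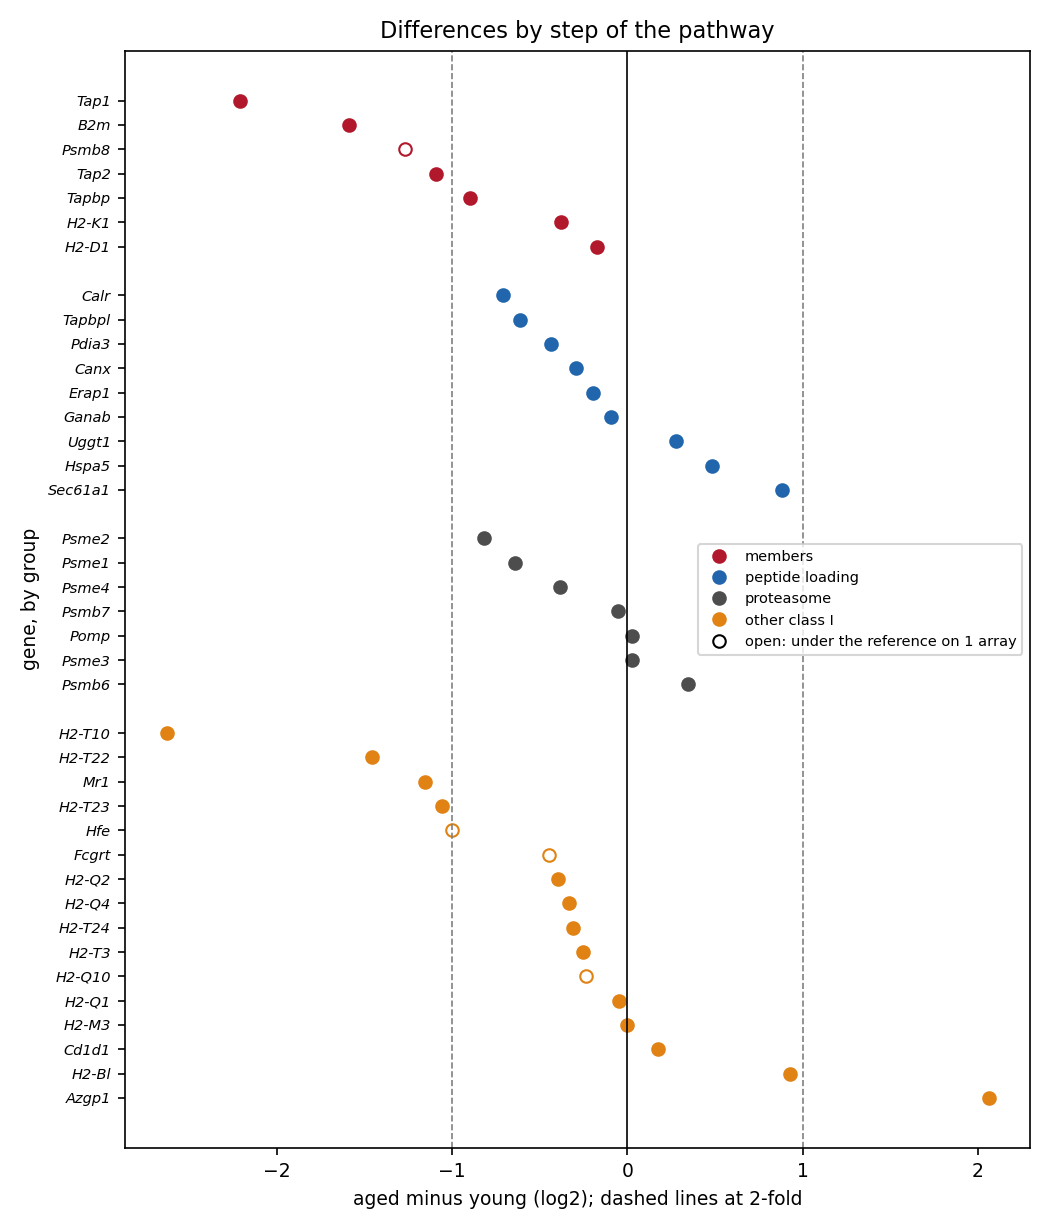
Difference aged minus young (log2) for each gene above background, grouped as the members, other peptide loading genes, other proteasome genes and other class I genes, with dashed lines at 2-fold. Open points were under the reference on 1 array. Points left of the lower line are found among the members and the other class I genes and in neither of the other groups.

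Other class I genes varied in direction and size, from *H2-T10* (−2.63) to *Azgp1* (2.06). Of 24 other heavy chain and class I-like genes, 21 were measured and 16 exceeded the reference. Among the 16, aged organoids were lower by 2-fold or more in 4 and higher in 1, and the median difference over the 21 was −0.23. *H2-T10* and *H2-T22*, which are closely related and bind the receptors of some γδ T cells, were at 11.01 and 8.38 (−2.63) and at 8.74 and 7.28 (−1.46). *H2-T23* encodes Qa-1, which presents leader peptides of other class I molecules to natural killer cell receptors, and was at 12.10 and 11.04 (−1.06). *Mr1*, which presents vitamin B metabolites of microbes to MAIT cells, was at 11.54 and 10.38 (−1.16). The Q region genes *H2-Q1* (−0.05), *H2-Q2* (−0.39), *H2-Q4* (−0.33) and *H2-Q10* (−0.23), as well as *H2-T3* (−0.26), *H2-T24* (−0.31) and *H2-M3* (−0.0025), stayed well within 2-fold. *Hfe* and the neonatal Fc receptor gene *Fcgrt* were above background on the young array alone, at least 1.75-fold and at least 1.21-fold lower. *H2-Q10* (5.52 and 5.29) was above it on the young array alone too, too close to background for a bound. *Cd1d1*, which presents lipids, differed by 0.18 and *H2-Bl* by 0.93, and *Azgp1*, which encodes a secreted class I-like glycoprotein, was at 5.64 in young and 7.70 in aged organoids (2.06).

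Among *B2m* and the H2 heavy chain genes alone, the strict response element was found in genes with lower signal in aged organoids. Over *B2m* and the H2 heavy chain genes that were above background and had a promoter window, GAAANNGAAA was present in 3, *B2m*, *H2-T22* and *H2-T23*, and these differed by −1.59 to −1.06. The 7 without it, *H2-K1* and *H2-D1* among them, differed by −0.39 to −0.0025. Of these, *H2-K1*, *H2-D1*, *H2-Q4*, *H2-Q10* and *H2-M3* held the shorter GAANNGAAA, so the split holds for GAAANNGAAA alone. *H2-T10*, *H2-T24*, *H2-Q1* and *H2-Bl* had no window in the table. This split was noticed after the values were known, rests on the choice of these genes and was not tested. It did not extend to the other members, as *Tap1* (−2.21), *Psmb8* (−1.27) and *Tapbp* (−0.90) had windows without the element. Of genes above background in the other lists, *Irf2* (0.16), *Erap1* (−0.20), *Rsad2* (−0.33), *Psme1* (−0.64) and *Ddx58* (−0.95) held the element without reaching 2-fold. *Stat2*, *Irgm1*, *Irgm2*, *Ifih1*, *Oas1a* and *Bst2* held it and were lower by 2-fold or more, above the reference on both arrays. *Isg15*, *Ifit1*, *Gbp7* and *Gbp2* held it and were lower by as much, but under the reference in aged organoids. By contrast, *Irf1* (−1.49), *Ifi35* (−1.38), *Rfx5* (−1.21), *Ifngr1* (−1.06), *H2-DMb1* and *H2-Eb1* were lower by as much with windows that lacked it. The element was also not found for *Oas2* (−4.92), *H2-Ab1* (−2.65), *Oasl2* (−2.59), *Mx2* (−1.27) and *Usp18* (−1.04), but whether these had a window was not checked. Over the whole array, of 271 genes above background with it in their window, 16.2% were lower by 2-fold or more and 13.3% higher, against 11.4% lower and 11.6% higher of the 9424 genes above background with any window. GAANNGAAA was in the windows of 575 genes above background, 13.9% of them lower and 11.3% higher by 2-fold or more. The κB site, present in *B2m*, *H2-K1* and *H2-D1* alike, had 13.5% of 943 genes lower and 10.9% higher by that much. The TGACG and ATTGG pair had 9.09% lower and 15.6% higher of 77 genes.

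Regulators that act on class I promoters were split. A list of 18 such factors had 16 measured and 14 above background. Aged organoids were lower by 2-fold or more in 3 of these and higher by that much in none, and the median difference was 0.15. The 3 were *Stat2*, a transcription factor of the response to type I interferon (10.48 in young and 8.68 in aged organoids, −1.80), *Irf1*, the interferon-induced activator of *Tap1* and of class I genes (8.93 and 7.43, −1.49), and *Rfx5*, the X box protein (9.45 and 8.25, −1.21). None of the Y box and X2 box factors reached 2-fold. *Nfyb* (0.82), *Nfyc* (0.73), *Creb1* (0.75) and the RFX subunit *Rfxap* (0.83) had the highest differences of the list, and *Nfya* (0.20), *Atf1* (0.22) and *Rfxank* (0.14) were nearly level. *Stat3* and *Irf9*, the latter the DNA-binding partner of STAT2, differed by −0.73 and −0.63. *Ciita*, the class II counterpart of *Nlrc5*, was under the reference on both arrays.

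Interferon receptor chains and response genes were measured beside the members. Of 14 receptor, kinase and inhibitor genes, 12 were above background. The 2-fold mark was passed downward in aged organoids by 2 and upward by none, and the median difference over all 14 was −0.31. The ligand-binding chain *Ifngr1* was at 14.19 in young and 13.13 in aged organoids (−1.06), and its partner *Ifngr2* differed by 0.39. The type I receptor chain *Ifnar1* (9.54 and 8.54) fell just short of 2-fold, its partner *Ifnar2* differed by −0.83, and the receptor kinases *Tyk2* and *Jak1* differed by −0.79 and 0.13. *Usp18*, an interferon-induced inhibitor of the type I receptor, differed by −1.04, though it lies on chromosome 6. Among 31 interferon-induced genes outside antigen processing, 27 were measured and 18 exceeded the reference. In aged organoids 13 of the 18 were lower by 2-fold or more and none was higher by that much, and the median over the 27 was −1.27. By measured difference, the first 5 were the antiviral enzyme genes *Oas2* (−4.92, to under the reference) and *Oasl2* (−2.59), the immunity-related GTPase genes *Irgm1* (−3.12) and *Irgm2* (−2.20), and the ubiquitin-like modifier gene *Isg15*. *Isg15* lay under the reference in aged organoids, which bounds it at 1.84-fold lower or more, a smaller value than those of *Ifih1* (3.70-fold), *Oas1a* (3.47-fold) and *Bst2* (3.20-fold), which were above the reference on both arrays. *Ifit2* ran the other way (0.51), as did *Cd274*, which encodes the inhibitory ligand PD-L1, and *Mx1*, both under the reference on the young array and at least 1.14-fold and 1.25-fold higher. The chemokine genes *Cxcl9*, *Cxcl10* and *Cxcl11*, which interferon-γ induces strongly, were under the reference on both arrays. Whether interferon signaling had a part in the differences of the members was not tested.

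Between *H2-K1* and *H2-D1*, 6 of the 7 genes that were lower by 2-fold or more lay in a short stretch. *Psmb9*, *Tap1*, *Psmb8* and *Tap2* follow each other directly in the RefSeq gene order of chromosome 17, between the class II genes *H2-DMb1* and *H2-Ob*. *H2-DMb1*, a chain of the class II peptide exchanger, had 9.96 in young organoids and 5.11, a value under the reference, in aged organoids, at least 21.4-fold lower. *H2-Ab1*, a class II β chain gene next to *H2-Ob*, was at 9.95 and 7.30 (−2.65), and *H2-Eb1* was at least 1.63-fold lower. Between *H2-K1* and *H2-D1* lie 81 protein-coding genes, of which 77 were measured and 46 were above background. The 7 are 15.2% of these 46. Leaving out the 4 members, 43 were above background, with 4 lower by 2-fold or more and 3 higher by as much (*Ly6g6c*, *Msh5* and *Gpank1*). With the genes of an H2 symbol left out too, 39 were above background, and 1 was lower by 2-fold or more (*Ddah2*, −1.09). That step takes out *H2-DMb1*, *H2-Ab1* and *H2-Eb1*, so the count of 1 follows in part from the choice. The same 3 were higher, and the median over the 63 measured was 0.09. The median over the rest of chromosome 17 was −0.0049 over 884 genes, and 14.8% of its 521 genes above background were lower by 2-fold or more. *B2m* lies apart from these genes, on chromosome 2.

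**Figure D5:**
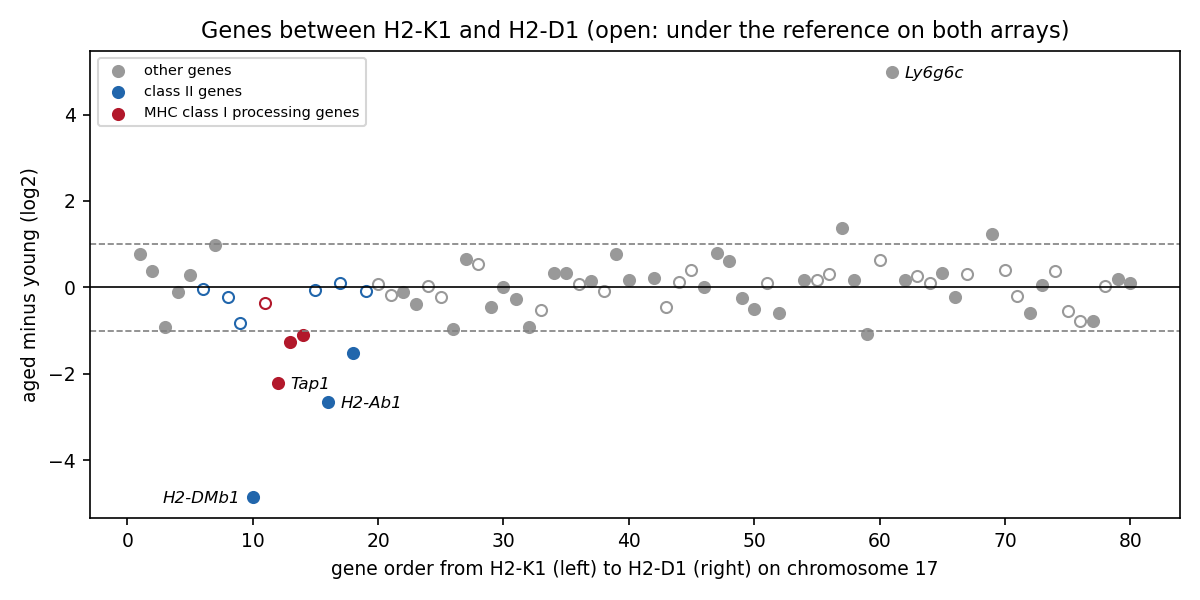
Difference aged minus young (log2) of the measured genes between *H2-K1* and *H2-D1*, in their order on chromosome 17, with dashed lines at 2-fold and open points for genes under the reference on both arrays. *Tap1*, *Psmb8*, *Tap2*, *H2-DMb1*, *H2-Ab1* and *H2-Eb1* lie below −1 within 9 neighboring places, and most other genes lie between the dashed lines.

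Few markers of other cell types exceeded the reference. Leukocytes carry class I and immunoproteasome RNA at high levels, so their markers were set beside the members. Of 20 leukocyte markers, 18 were measured, with a mean log2 signal of 4.43 in young and 4.32 in aged organoids. Of these 18, 16 were under the reference on both arrays. The defining genes *Ptprc* (5.18 and 5.22), *Cd3e* (3.67 and 3.77), *Itgam* (4.17 and 3.92) and *Csf1r* (3.85 and 3.73) were among those at background. *Cd14* (9.65 and 7.75) and *Cd4* (7.52 and 7.76) were above it. Of the measured markers, 1 of 10 for endothelium and 4 of 14 for fibroblasts and smooth muscle were above background, the latter led by *Fn1* (12.16 and 11.39) and *Vim* (6.75 and 9.48). *Cd14* was thus lower and *Vim* higher in aged organoids, and their part in the differences of the members was not tested. Of 17 measured genes of gastric epithelium 15 were above background, with *Cdh1* (17.86 and 17.54) and *Cldn18* (18.01 and 17.20) bright on both arrays. The epithelial markers themselves differed between the arrays, 4 of the 15 lower by 2-fold or more, led by *Gata6* (−1.88) and *Gata4* (−1.65), and 4 higher by as much, led by *Epcam* (1.86) and *Ehf* (1.36), and their part in the differences of the members was not tested. Of the surface mucous genes of the list, *Gkn1* and *Muc5ac* were under the reference on both arrays. *Tff1* was at 5.84 in young and 4.83, under the reference, in aged organoids, a measured difference of −1.01 and at least 1.23-fold lower.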

How the data were processed

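Total RNA of young and aged gastric organoids was measured on 1 Clariom S mouse array each. The authors deposited log2 signals of probe sets from RMA in Affymetrix Power Tools (versions and log base not given in the sources used here). The young array spanned 2.12 to 19.9 and the aged array 2.03 to 19.9. No further normalization was applied.

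Of 22206 probe sets, 2634 without a single gene symbol were left out, and for 55 genes the mean over their probe sets was taken. Names and gene order follow RefSeq (GRCm38.p6), and no platform symbol differed from it. The coordinates printed are those of the RefSeq promoter table. No proteins were compared, although this was planned, because no protein sequences were used here.

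Differences are aged minus young. No difference between the arrays was tested, for want of replicates. A gene counted as lower or higher if it exceeded the background reference on at least 1 array and differed by 2-fold or more. Where the dimmer value was under the reference, a bound was computed from it. Alternatives covered scaling, the reference, probe sets, symbols, the fold and list summaries. The script that counts genes was checked on simulated data. Named were all members, the genes of the loading, proteasome and class I lists above the reference, up to 5 genes in each direction of other lists, and genes that define a cell type. *Ciita*, the chemokine genes, *Ifih1*, *Oas1a*, *Bst2*, *Ddx58*, *Ifit1*, *Gbp2*, *Gbp7*, *Irf2*, *Rsad2*, *Nfya* and *Rfxank* were named after their values were seen. The same holds for *Ifi35* and *Mx2*. The members and lists were chosen with earlier results of these data known. Calculations used Python 3.11.15, numpy 2.4.6, pandas 2.3.3, biopython 1.88 and matplotlib 3.10.9.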

Additional observations from a re-analysis of the deposited data

How the results depend on the processing

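The 9 member differences kept their sign under 3 other scalings. The reference at the 99th percentile, the brightest probe set and platform symbols could not change them, since each member has 1 probe set and no symbol was updated. *Tap1* ranged from −2.37 to −2.20, *B2m* from −1.75 to −1.51, *Psmb8* from −1.43 to −1.26, *Tap2* from −1.25 to −1.07 and *Tapbp* from −1.06 to −0.89. The number of members at least 2-fold lower was 4 in the main setting. It was 5 with the reference genes set equal, which shifts all differences by −0.16 and takes *Tapbp* past 2-fold, and 5 when genes were counted at 1.5-fold. It was 3 with values under the reference raised to it, a setting chosen after seeing the data, since *Psmb8* then counts no longer. No member was higher under any of these. The median of the members lay between −1.09 and −0.89 over all alternatives. Of the 11558 genes above background, 1369 were at least 2-fold lower in the main setting. The count was 1682 with the reference genes set equal and 1184 with values under the reference raised to it. At 1.5-fold 2456 were lower, as a smaller fold admits more genes, so the member counts under these settings have different backgrounds. No paired analysis was possible because each group has 1 array, and no array could be left out. At the dim end, *Psmb8*, *Psmb9*, *Psmb10* and *Tap2* are limited by background.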

Other observations

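Ligands of natural killer cell receptors did not share a direction. Of 13 such genes 6 were measured, all above background on at least 1 array. Aged organoids were lower by 2-fold or more in 2 and higher by as much in 2, and the median difference was 0.31. *Clec2d*, which encodes a lectin-like ligand of an inhibitory natural killer cell receptor, had a log2 signal of 10.12 in young and 14.62 in aged organoids (difference 4.50, aged minus young), on chromosome 6. *Pvr*, a ligand of the activating receptor DNAM-1, was at 8.67 and 9.84 (1.16). *Ulbp1*, a ligand of the activating receptor NKG2D, had 7.17 in young organoids and 3.54, which is under the reference, in aged organoids, at least 3.09-fold lower. *H60c*, another NKG2D ligand, was at 5.48 and 4.39, too close to background for a bound. The adhesion molecules *Nectin2* (12.19 and 12.14) and *Cadm1* (7.64 and 8.31) stayed within 2-fold.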
